A study of Homo sapiens with 6 samples.

Results

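The regions described here are the DNase-accessible sites of the extended major histocompatibility complex (MHC) on the short arm of human chromosome 6. Overlapping peaks of the 6 deposited lists were joined (minimum overlap 1 bp), and a library counted as calling a joined region when any of its peaks fell there. Members were the merged regions whose centre lay at chr6:28477797-33448354 (hg19), an interval of 4.97 Mb. There were 349 members among 81216 merged regions in the genome, and 3483 regions lay on the rest of chromosome 6. In DNase-seq, DNase I digests chromatin where it is open, and the cut sites are read by sequencing. It was done in A549, a human lung adenocarcinoma cell line, so all groups share 1 cell line. The dexamethasone group had received 100 nM of this synthetic glucocorticoid for 1 h, and the ethanol group 0.02% ethanol as vehicle for 1 h, with 3 libraries each, numbered 1 to 3. The labels do not say whether libraries came from separate cultures, so p-values measure only the spread between these libraries, which may be technical.

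The MHC is a gene-dense part of the genome known for the class I and class II molecules that present peptides to T cells. Class I molecules are made by most nucleated cells, whereas class II molecules are made mainly by antigen-presenting cells and by other cells after interferon gamma. Between both classes lies the class III region, with complement components, tumour necrosis factor and its relatives and heat shock proteins. Glucocorticoids act through the glucocorticoid receptor, which binds DNA, mostly at sites that are already accessible, and dampens many immune genes. In RefSeq's GRCh38.p14 table, used for gene names and order only, 64 of 67 genes listed for this work were found. Whether each of them lies inside the hg19 interval was not tested. The order of the listed genes along the chromosome began with the zinc finger genes ZKSCAN3 and ZSCAN12. Class I genes such as HLA-F and HLA-G followed and, farther on, MICA and MICB. Then came LTA, TNF and LTB, the complement genes C2, CFB, C4A and C4B, the class II genes from HLA-DRA to HLA-DPB1, and DAXX. The hg19 regions were not matched to genes, so members are given by position, and neither the gene lists nor markers of the cell line were tested.

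The lists held 58281 to 61344 peaks in all and 2681 to 2916 on chromosome 6. The files give no read counts, so sequencing depth is unknown, and an absent peak means only that none was listed. Peak strength is given as a percentile: all peaks of a library were ordered by −log10 q, from 0 (weakest) to 100 (strongest). A region's percentile is the mean over the libraries that called it.

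Accessible sites were denser in the MHC than on the rest of chromosome 6 in every library. The dexamethasone libraries had 57.9, 57.5 and 53.1 peaks per Mb in the MHC (replicates 1 to 3) and the ethanol libraries 55.9, 56.9 and 57.3. On the rest of the chromosome the same lists had 14.4, 15.1 and 15.3 and then 14.6, 15.3 and 15.9 peaks per Mb. The lowest MHC density, that of dexamethasone replicate 3, was thus far above the highest density outside. The ratio was 3.75 ± 0.19 (SD, n = 6 libraries), or 1.91 ± 0.07 on the log2 scale (higher in 6 of 6 libraries, exact two-sided sign-flip permutation p = 0.03125). That is the smallest p that 6 libraries allow, and it stayed at 0.03125 after Benjamini-Hochberg adjustment over the 3 MHC measures tested. Peaks covered 2.17 ± 0.10% of the bases of the MHC and 0.555 ± 0.019% of the rest (SD, n = 6). Each library had 9.45 to 10.7% of its chromosome 6 peaks in the MHC. The MHC took up 2.91% of the chromosome's span from the first to the last peak of any list.

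Set against other stretches of the same length, the MHC stood at the top of a broad dense part of the chromosome. Of 33 consecutive windows of 4.97 Mb, the one holding the MHC had the most merged regions, 349, and the other 32 had 1 to 278 with a median of 84.5. The windows just before and just after it came next, with 278 and 248 regions. Per library, the MHC had 264 to 288 peaks, the window before it 214 to 227 and the window after it 184 to 194. The ratio to the mean of both flanks was 1.37 ± 0.04 (SD, n = 6 libraries, higher in 6 of 6, exact two-sided sign-flip permutation p = 0.03125), a comparison added after the data were seen. On the other chromosomes, 18 of 559 windows of that length (3.22%) held more regions than the MHC, among them 7 on chromosome 17 and 7 on chromosome 19. Tiling starts at the MHC on chromosome 6 and at the first peak elsewhere, so these ranks are a description.

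**Figure D1:**
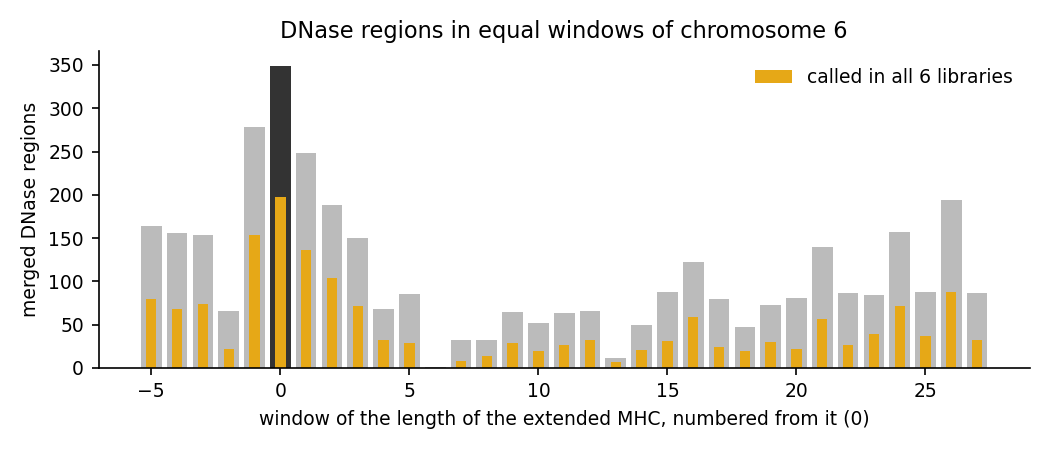
Merged DNase regions (vertical axis, count) in consecutive windows of chromosome 6, each as long as the extended MHC and numbered from it along the horizontal axis. The dark bar is the MHC with 349 regions, grey bars are the other windows, of which the neighbours hold 278 and 248, and narrow bars are the regions called in all 6 libraries, 197 of them in the MHC.

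MHC peaks also stood higher in their lists than peaks on the rest of chromosome 6. The median percentile of −log10 q was 54.5, 53.3 and 53.5 for MHC peaks of the dexamethasone libraries and 51.5, 54.7 and 51.3 for those of the ethanol libraries. On the rest of chromosome 6 it was 44.3, 44.2 and 42.3 and then 43.0, 42.7 and 42.8. No library's value outside reached the lowest value inside. The difference was 9.92 ± 1.45 points (SD, n = 6 libraries, higher in 6 of 6, exact two-sided sign-flip permutation p = 0.03125, adjusted p = 0.03125). Against both flanking windows together it was 5.77 ± 1.90 points (SD, n = 6, exact permutation p = 0.03125). The later flank alone was similar to the MHC: its medians ran from 51.4 to 56.8, overlapping the 51.3 to 54.7 of the MHC. The MHC medians lay only slightly above the middle of the whole lists, whereas those of the rest of chromosome 6 lay below it. Regions called in all 6 libraries were also ranked only against each other. Their median rank was 48.0 in the MHC, 47.9 over the whole genome and 40.2 on the rest of chromosome 6.

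The excess of MHC peaks over the rest of the chromosome grew with peak strength. In the weakest 25% of each list, the density in the MHC was 2.69 ± 0.28 times that outside (SD, n = 6 libraries). In the following bands of 25% it was 3.37 ± 0.18, 4.06 ± 0.34 and, for the strongest peaks, 5.70 ± 0.38 times. Each library had 53 to 63 MHC peaks in the weakest band and 70 to 77 in the strongest. Outside, each library had 650 to 791 peaks in the weakest band and 407 to 473 in the strongest. The gradient thus came more from the fall outside than from the rise in the MHC. The density ratios of the weakest band, 2.31 to 3.08, and of the strongest, 5.21 to 6.15, did not overlap. Within libraries the strongest band exceeded the weakest by 1.09 ± 0.18 on the log2 scale (SD, n = 6, higher in 6 of 6, exact two-sided sign-flip permutation p = 0.03125). Bands were chosen after the data were seen, and this gradient restates the difference in strength above.

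**Figure D2:**
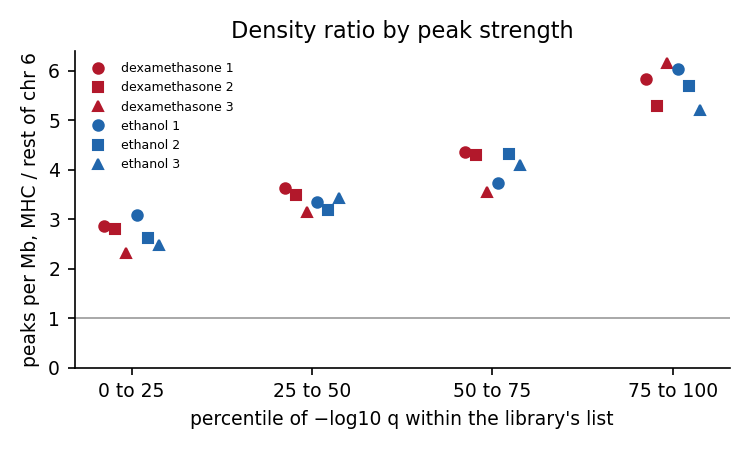
Density ratio of peaks, MHC over the rest of chromosome 6 (vertical axis), in 4 bands of 25% of each library's list by −log10 q (horizontal axis, percentile). Each point is 1 library, red for dexamethasone and blue for ethanol, with the replicate as symbol; the line marks a ratio of 1. All points of the strongest band lie at 5.21 or above and all points of the weakest at 3.08 or below.

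Peaks of the MHC were slightly wider when all strengths were pooled, but not at like strength. The median MHC peak was 330.5, 317 and 317 bp wide with dexamethasone and 319, 319 and 312 bp with ethanol. Outside, the medians were 313, 307 and 297 bp and then 306, 308 and 302 bp. MHC peaks were wider by 13.6 ± 4.2 bp (SD, n = 6 libraries, 6 of 6, exact two-sided sign-flip permutation p = 0.03125, adjusted p = 0.03125). Within bands of strength the sign turned: the MHC minus rest difference averaged −2.5, −7.3, −20.2 and −8.3 bp from the weakest to the strongest band. Of these, the second band reached an exact permutation p of 0.03125 (narrower in 6 of 6 libraries, n = 6), which was 0.125 after Bonferroni adjustment over the 4 bands. Against both flanks the width difference was 0 ± 9.5 bp (SD, n = 6, exact permutation p = 1).

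Of the 349 members, 197 (56.4%) were called in all 6 libraries, 107 in 2 to 5 and 45 (12.9%) in 1. The 95% exact binomial intervals were 51.1 to 61.7% and 9.56 to 16.9%; they cover counting error over regions only, and neighbouring regions are not independent. On the rest of chromosome 6, 1577 of 3483 regions (45.3%) were called in all libraries and 676 (19.4%) in 1. In the whole set the shares were 49.2% and 18.9%, and in the flanking windows 55.0% and 54.8% were called in all libraries. Within bands of strength the shares were close. Below the 25th percentile, 3.88% of MHC regions and 5.64% of the others were called in all 6 libraries. In the next band it was 51 of 102 MHC regions against 49.1% of the others, then 97.2% and 97.6%, and in the strongest band all 72 and all 407 regions were called throughout.

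**Figure D3:**
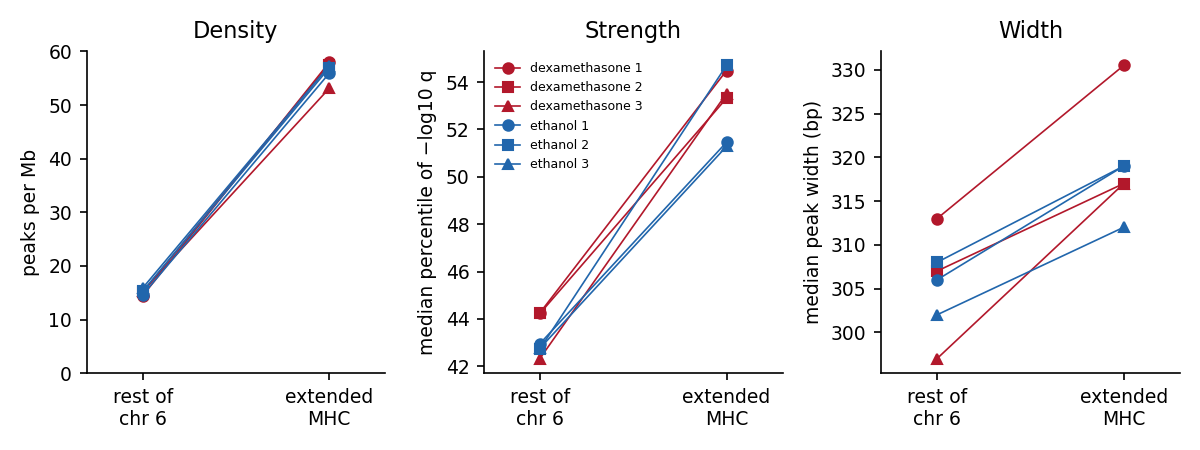
Peaks per Mb, median percentile of −log10 q and median peak width in bp (vertical axes) on the rest of chromosome 6 and in the extended MHC, with 1 line per library, red for dexamethasone and blue for ethanol. All 6 lines go up in each panel; only the density axis starts at 0.

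Members called in all libraries had summits in nearly the same place. Among the 173 with a single peak in every library, the summits of the 6 lists spread over a median of 46 bp, against 51 bp for 1326 such regions on the rest of the chromosome. Over all 349 members, 28 (8.02%) were split into more than 1 peak by some library, close to the 8.15% outside. Among members called in all 6 libraries it was 24 of 197 (12.2%), against 15.9% outside. Breadth went with strength and size: the median percentile was 64.7 for members called throughout, 23.5 for those called in 2 to 5 libraries and 11.3 for those called once. Their median widths were 506, 281 and 217 bp. A joined region spans all of its peaks, so further calls can only widen it, and the widths are in part set by the joining.

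The interval was far from evenly filled. It was divided into 10 equal segments of 0.497 Mb, counted from its start. Segment 1 held the most regions, 59, and segment 2 the fewest, 4. Segments 3 to 7 held 28, 34, 47, 40 and 49, and segments 8 to 10 held 25, 22 and 41. Segment 1 was crowded but weak, with a median percentile of 25.8 and 27 of 59 regions (45.8%) called in all libraries. Segments 5 and 7 were crowded and strong, with median percentiles of 54.9 and 56.8 and 30 of 47 (63.8%) and 33 of 49 (67.3%) called throughout. The densest 50 kb of the MHC lay in segment 1 at chr6:28908455-28953833, where 12 regions had a median percentile of 17.8. Of these, 1 was called in all libraries and 5 in a single one, and each library called 4 to 7. The densest 50 kb of the rest of chromosome 6 held 13 regions, of which 5 were called throughout. These windows were picked for their number of regions. Members lay close together, with a median of 3.18 kb from centre to nearest centre and 290 of 349 (83.1%) within 10 kb, against 7.13 kb and 57.7% outside.

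Long stretches without any region interrupted the interval. The longest, chr6:29040236-29521320, spanned 481 kb and took up most of segment 2. The next were chr6:32577922-32753701 with 176 kb and chr6:32441478-32557523 with 116 kb, both in the later part of the interval. Such stretches were not rare on chromosome 6: 35, 145 and 281 of 3483 stretches outside (1.00%, 4.16% and 8.07%) were longer. Whether these bases could be mapped by the authors' alignment was not tested. At the edges, the last region before the interval lay 19.999 kb from its bound (mean percentile 29.9) and the first member 32.8 kb inside (64.2). At the far end the last member lay 26.1 kb inside (94.2) and the next region 76.5 kb outside (26.2).

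**Figure D4:**
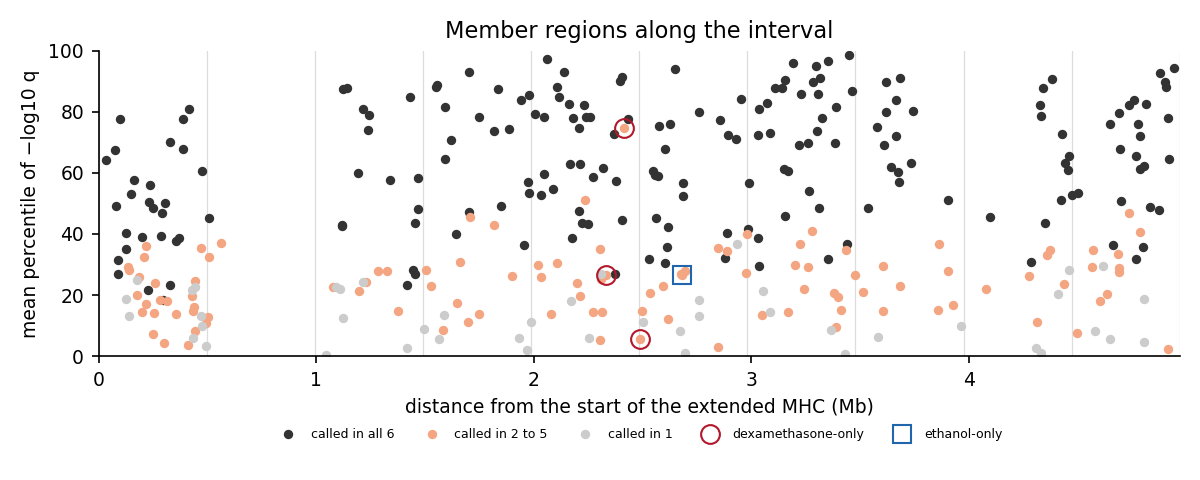
Mean percentile of −log10 q (vertical axis) of all 349 members against distance from the start of the extended MHC in Mb, with vertical lines between the 10 segments. Colours give the number of libraries calling a member, and open circles and a square mark the 3 dexamethasone-only members and the ethanol-only member. The empty stretch of 481 kb and the strong regions of segment 7 stand out.

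The strongest members were nearly constant across libraries, and 4 of the 5 lay in segment 7. The first, chr6:31926588-31927113, had percentiles of 98.1, 97.8 and 99.6 with dexamethasone and 99.2, 99.02 and 98.8 with ethanol. Its fold enrichment, the authors' value at each peak's summit, was 18.0 ± 0.3 (SD, n = 6). The groups overlapped, as they did at the other 4. These were chr6:30538888-30539609 in segment 5, with a mean percentile of 97.3 ± 0.9, and chr6:31830500-31831017 with 96.6 ± 1.2 (SD, n = 6 each). They were followed by chr6:31670600-31671370 with 95.9 ± 2.0 and chr6:31774357-31774969 with 95.1 ± 1.9 (SD, n = 6 each). The widest members were chr6:31619703-31620951 with 1249 bp, chr6:31587681-31588916 with 1236 bp and chr6:32121456-32122672 with 1217 bp. Then came chr6:31697104-31698267 with 1164 bp and chr6:33377775-33378907 with 1133 bp. Of these 5, 3 lay in segment 7. Wide members were not always strong: the one of 1217 bp had a mean percentile of 62.1 ± 10.9 and the one of 1249 bp 87.9 ± 2.1 (SD, n = 6).

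The design sets accessible chromatin after dexamethasone against that after vehicle. For the MHC, the overall extent did not differ beyond the spread of libraries. The dexamethasone libraries had 288, 286 and 264 MHC peaks and the ethanol libraries 278, 283 and 285. The ethanol values lay within the range of the dexamethasone values, whose lowest, from replicate 3, was also the lowest of all. The means were 279.3 ± 13.3 and 282.0 ± 3.6 (SD, n = 3 each, exact two-sided permutation p = 1, the smallest possible being 0.1). Without dexamethasone replicate 3 the difference changed sign, to 5.0 more peaks with dexamethasone (exact permutation p = 0.2). The bases under MHC peaks came to 107.8 ± 7.4 kb after dexamethasone and 107.8 ± 2.2 kb after ethanol, each over n = 3 (SD), at an exact permutation p of 1. Without dexamethasone replicate 3 they covered 4.23 kb more with dexamethasone. The MHC's share of chromosome 6 peaks was 10.7, 10.3 and 9.45% after dexamethasone and 10.3, 10.1 and 9.77% after ethanol. These groups overlapped as well (n = 3 each, exact permutation p = 0.9). After Benjamini-Hochberg adjustment over these 3 measures each p was 1. Per segment, the groups differed by at most 2.0 regions on average. That was in segment 9, with 16, 16 and 15 regions in the dexamethasone libraries and 19, 17 and 17 in the ethanol libraries (exact permutation p = 0.1, adjusted p = 1 over 10 segments, n = 3 each).

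Sites called after dexamethasone alone were rare in the MHC, at a share near the background. There were 3 members (0.860%) that every dexamethasone library and no ethanol library called, against 1.10% of all regions and 0.976% of those on the rest of chromosome 6. All 3 lay within 155 kb, in segments 5 and 6. The first, chr6:30811791-30812194, had percentiles of 25.2, 32.6 and 21.9 in the dexamethasone libraries and fold enrichments of 5.88, 6.90 and 5.67. The nearest ethanol peak lay 15.1 kb away. The second, chr6:30894463-30894850, was the only strong one. Its percentiles were 67.2, 69.3 and 87.3, its fold enrichments 9.04, 9.55 and 13.2, and the nearest ethanol peak lay 10.8 kb away. It was strongest in dexamethasone replicate 3, the library with the fewest MHC peaks. The third, chr6:30966548-30966900, was near the caller's limit with percentiles of 1.6, 12.7 and 2.7. It lost 1 of its 3 dexamethasone calls when a −log10 q of at least 5 was asked of peaks, where the count of dexamethasone-only members was still 3. The single ethanol-only member (0.287%, against 0.662% of all regions) was chr6:31160358-31160603. Its percentiles were 34.2, 18.7 and 26.3 in the ethanol libraries, and the nearest dexamethasone peak lay 4.16 kb away.

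These counts are small and move with the rule. With replicate numbers as pairs (replicate block), asking for a peak in the one library and none in the other in at least 2 of 3 pairs and the reverse in none, 15 members (4.30%) were gained with dexamethasone. The reverse held for 20 members (5.73%). The same looser rule gave 4.47% and 4.80% of all regions. Leaving out 1 library also loosens the rule: dexamethasone-only members then numbered 3 or 4 without dexamethasone replicate 1 or 2 or ethanol replicate 1, 5 without ethanol replicate 3, 6 without ethanol replicate 2 and 9 without dexamethasone replicate 3. These were 0.877 to 2.64% of members, against 1.52 to 2.17% of all regions under the same rules, and in that last case 2.64% against 2.17%. Ethanol-only members numbered 1 without ethanol replicate 3, 3 without ethanol replicate 2, 4 and 5 without dexamethasone replicates 1 and 3, and 6 without dexamethasone replicate 2 or ethanol replicate 1. Their shares ran from 0.288 to 1.75% of members, against 1.17 to 1.84% of all regions, with 0.288% against 1.40% without ethanol replicate 3.

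From the first to the last of the dexamethasone-only members there were 10 members in all, and the other 7 were called in all 6 libraries. The strong site at chr6:30894463-30894850 thus lay among regions called throughout, 10.8 kb from the nearest such region. Of these 7, 3 ranked higher on average with dexamethasone, and only chr6:30853859-30854534, described below, had all dexamethasone ranks above all ethanol ranks. This stretch was singled out after its values were seen.

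Partly called members leaned to neither treatment throughout. There were 12 members (3.44%) called in 1 dexamethasone and all ethanol libraries, against 1.74% of all regions and 2.07% of the rest of chromosome 6. The opposite arrangement held for 5 members (1.43%, against 1.23% of all regions). Of the 12, 5 lay in the crowded first segment. Their mean percentiles ran from 8.07 to 34.9, so all were weak to moderate. The next step went the other way: 12 members (3.44%, against 2.62% of all regions) were called in 2 dexamethasone libraries and 1 ethanol library, and 6 (1.72%, against 3.29%) in 1 and 2. Among members called in 5 libraries, 19 (5.44%, against 4.88%) lacked a dexamethasone library and 11 (3.15%, against 3.18%) an ethanol library. Taking every member, dexamethasone calls outnumbered ethanol calls in 63 (18.1%, against 19.7% of all regions) and were outnumbered in 65 (18.6%, against 22.5%). Of the 30 members called in 5 libraries, 12 lacked dexamethasone replicate 3, and each other library was missing from 1 to 6. On the rest of chromosome 6 dexamethasone replicate 3 was also missing most often, from 63 of 287 such regions, but barely ahead of dexamethasone replicate 1 with 60. In the MHC, dexamethasone replicate 1 was missing from 3 of the 30. The lead of dexamethasone replicate 3 was thus larger in the MHC than on the rest of chromosome 6. It rests on 30 regions and was not tested, and other chromosomes were not compared.

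The last comparison asked whether members called in all 6 libraries differed in strength between treatments. Since the lists differ in length, each shared region was ranked only among the 39934 regions called in all 6 lists, from 0 for the weakest to 100, and limma was fitted to normal scores of these ranks over all of them. No MHC member passed an adjusted p of 0.05 in this limma fit (0 of 197), where 0.195% of all shared regions were higher and 0.0100% lower with dexamethasone. On the rest of chromosome 6 the same fit called 0 of 1577 regions. At an unadjusted p under 0.05 there were 10 members (5.08%, against 6.43% of all shared regions). With the replicate number as a block limma called 0 members, at a lowest adjusted p of 0.077, although calls over all shared regions went from 82 to 283. Without dexamethasone replicate 3, limma called 1 member (0.508%, against 0.123% of all shared regions in either direction), chr6:30709981-30710939. Its ranks were 84.7, 91.4 and 66.3 with dexamethasone and 62.3, 62.2 and 73.9 with ethanol. The dexamethasone replicate 3 value lies among the ethanol values, and the limma adjusted p was 0.48 with all libraries and 0.033 without that one.

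Most shared members had similar mean ranks in both treatments, but the differences ran from −33.5 to 30.8 points. The median difference, dexamethasone minus ethanol, was 0.82 points of rank, with 114 of 197 (57.9%) within 5 points. The rest of chromosome 6 was similar in its median, 0.64 points, with 51.3% within 5 points. Over all shared regions the values were −0.12 points and 56.0%. In 10 members (5.08%) all dexamethasone ranks lay above all ethanol ranks, against 5.79% of all shared regions and 6.72% on the rest of chromosome 6. In 9 members (4.57%) they lay below, against 5.62% of all shared regions and 5.01% on the rest of chromosome 6.

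The largest shifts in normal scores are given as values, since none passed the test. Their order is not that of the differences in points of rank. For example, chr6:32939328-32940062, at mean ranks of 58.4 with dexamethasone and 40.6 with ethanol, is not among them. It differed by more points than some that are. The largest positive shift was at chr6:28715457-28715865 in segment 1, with ranks of 39.3, 57.9 and 60.9 with dexamethasone and 19.7, 22.4 and 23.8 with ethanol. The groups did not overlap, and the shift was 0.84 ± 0.26 normal-score units (SE, limma adjusted p = 0.33, 0.13 with the block). Segment 1 held 2 more of the 5 largest positive shifts, chr6:28565773-28566122 and chr6:28602452-28602863, at mean ranks of 16.7 against 3.4 and 23.4 against 8.1. The fourth, chr6:31831366-31831855, was weak in a strong neighbourhood. It lay 0.35 kb from the member at chr6:31830500-31831017 and ranked at 36.3, 6.8 and 26.2 with dexamethasone and 8.7, 4.0 and 3.6 with ethanol, with overlapping groups. The fifth was chr6:30853859-30854534, between the first and second dexamethasone-only members. Its ranks were 62.0, 45.0 and 45.2 with dexamethasone and 22.1, 29.6 and 27.4 with ethanol, which did not overlap (limma shift 0.66 ± 0.25, SE, adjusted p = 0.58).

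The lowest adjusted p of any shared member was at chr6:31744712-31745280 in segment 7, which ranked lower with dexamethasone. Its ranks were 25.2, 15.4 and 15.9 with dexamethasone and 51.8, 55.0 and 50.03 with ethanol. The groups were well apart, with a mean difference of −33.5 points of rank and a shift of −0.95 ± 0.27 (SE, limma adjusted p = 0.23, 0.077 with the block). At chr6:30122516-30122873 the ranks were 5.1, 7.7 and 12.3 with dexamethasone and 25.2, 56.3 and 21.9 with ethanol (limma shift −0.98 ± 0.36, SE, adjusted p = 0.54). The groups did not overlap, and ethanol replicate 2 was far above the other libraries. At chr6:33140452-33140728 the mean ranks were 9.6 and 23.3, in groups that did not overlap. The other 2 members with large negative shifts, chr6:28763615-28764051 and chr6:30727329-30727647, had overlapping groups. In the former the ranks were 32.1, 12.3 and 1.6 with dexamethasone and 25.7, 21.8 and 25.9 with ethanol. In the latter they were 2.2, 17.5 and 37.2 with dexamethasone and 20.7, 22.4 and 43.8 with ethanol.

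**Figure D5:**
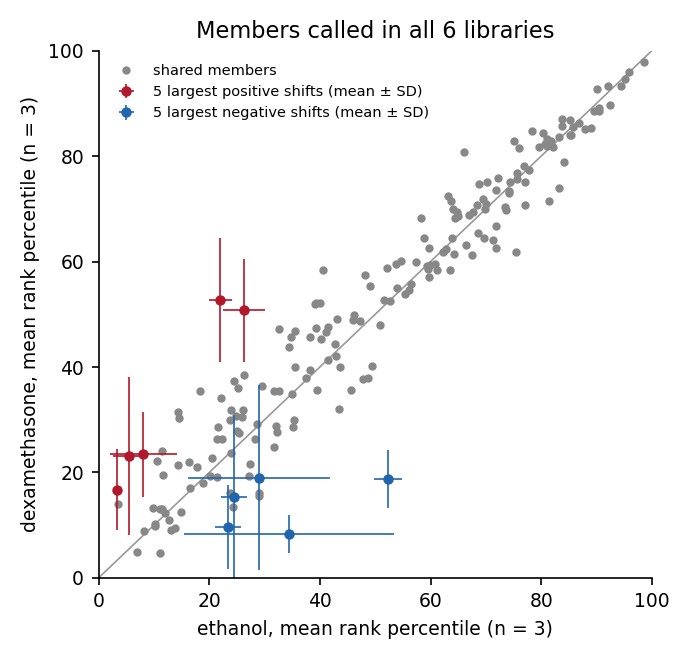
Mean rank percentile with dexamethasone (vertical axis) against ethanol (horizontal axis) for the 197 members called in all 6 libraries, n = 3 libraries per axis, with the line of equal rank. Coloured points with bars (SD) are the 5 largest positive and 5 largest negative shifts. Most points lie near the line, and none of the coloured ones passed the limma test.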

How the data were processed

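DNase-seq peaks of 6 A549 libraries were analysed. Tools named in the submitters' processing notes are MACS2 2.1.0, CASAVA 1.3, bedtools and Bowtie, with build hg19 and without settings. Peaks were numbered per list, so called per library as far as the files show. The deposited columns follow the narrowPeak layout: a fold ratio over the caller's background, −log10 p-value and −log10 q-value, and a score that equals the whole part of 10 times the deposited −log10 q and was not used. Starts were made 1-based. A region's strength in a library was that of its strongest peak. Exact tests over libraries enumerated every arrangement in Python 3.11.15, binomial intervals came from scipy 1.17.1, and limma 3.58.1 (eBayes with trend, Benjamini-Hochberg) was tested on simulated data. The simulated shifts were larger than that of any member, so they do not show how often limma would call shifts of the sizes reported here.

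Members and lists were chosen with earlier results of these data known. Regions were named by rule: those called in 1 treatment only, the 5 strongest, the 5 widest, the 5 largest shifts each way and the 3 longest empty stretches. Other named regions were chosen after their values were seen.

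The main comparisons have no replicate block. Equally numbered libraries deviated together over 39934 shared regions (correlations of 0.21, 0.12 and 0.15 for numbers 1 to 3), so the numbers were taken as pairs in the block. At most 27 peaks (0.0463%) had identical bounds in 2 lists. Receptor binding and reporter data of the study were not analysed here.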

Additional observations from a re-analysis of the deposited data

How the results depend on the processing

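Density, strength and width of MHC peaks kept their direction and reached p = 0.03125 (exact sign-flip) with a −log10 q of at least 5, lists of one length and, for density, without empty bins of 1 Mb. They also did so with the interval shortened by 500 kb at each end, where the log2 density ratio was 1.71 and the strength difference 14.3 points. Without 1 library the values ranged from 1.88 to 1.93 (log2 density ratio), from 9.51 to 10.2 points and from 12.3 to 14.3 bp, all at an exact permutation p of 0.0625, the smallest that 5 libraries allow. In bands of strength the width difference reversed to −2.5, −7.3, −20.2 and −8.3 bp. The difference in the share called in all libraries, 11.2 points, became −1.76, 0.90, −0.38 and 0.0 points. Against both flanks the width difference was 0.0 bp. The share difference ranged from 8.94 to 12.8 points over the other alternatives.

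The treatment differences were near 0 and changed sign easily. Without 1 library the difference in peaks ranged from −7.0 to 5.0, in covered bases from −2.43 to 4.23 kb and in the share of chromosome 6 peaks from −0.185 to 0.460 points. With lists of one length the covered bases differed by 0.28 kb. The replicate block left these means as they are by construction and gave exact permutation p-values of 1 for peaks and covered bases and 0.75 for the share, where 3 pairs allow no p under 0.25. Without 1 library there were 3 to 9 dexamethasone-only and 1 to 6 ethanol-only members. Under the replicate block there were 15 and 20, and with a −log10 q of at least 5 there were 2 ethanol-only members. Shared members called by limma numbered 0 in 8 alternatives, the replicate block among them, and 1 without dexamethasone replicate 3. The 10 shared members named for their shift kept its sign in every alternative run. They were picked for large shifts in these same libraries, so a kept sign was likely in advance. The smallest shifts in any alternative were −0.053 at chr6:30727329-30727647 and −0.12 at chr6:28763615-28764051. Depth is unknown and limits weak peaks to an unknown extent.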
